A study of Homo sapiens with 8 samples.

Results

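The 48 genes described here encode the proteasome, its activators and its assembly factors. They were chosen by name, as every gene whose symbol is PSMA, PSMB, PSMC, PSMD, PSME or PSMG followed by a number, together with POMP, among 57992 genes counted. The rule goes by gene name and not by a measured value, but it was set with earlier results of these data known. All 48 gene identifiers were also present in the THP1 table. RNA was measured by polyA RNA-seq in Molm13 and THP1, established acute myeloid leukemia (AML) cell lines, carrying an shRNA against PRMT9 (shPRMT9, genotype label PRMT9 knockdown) or a control shRNA (shCtrl, genotype label WT), all under doxycycline (Dox) induction. Each of the 4 groups had 2 libraries. The labels do not say whether shPRMT9-1 and shPRMT9-2 were repeats or separate hairpins, nor whether libraries came from separate cultures, so the p-values measure only the spread between these libraries, which may be technical.

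The proteasome is the protease that degrades ubiquitin-tagged proteins. Its barrel-shaped core is built of alpha subunits (PSMA genes), which form the outer rings and the gate, and beta subunits (PSMB genes), of which PSMB5, PSMB6 and PSMB7 carry the active sites in most cells. The regulatory cap that binds, unfolds and feeds in ubiquitinated substrates is made of ATPases (PSMC genes) and non-ATPase subunits (PSMD genes). Interferons induce PSMB8, PSMB9 and PSMB10, which replace the constitutive active-site subunits in newly built cores to give the immunoproteasome, and PSME1 and PSME2, whose products form the PA28 alpha-beta activator. The immunoproteasome favours cleavage after residues that fit the groove of MHC class I and is abundant in cells of the blood lineage.

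PRMT9, the targeted arginine methyltransferase gene, fell in both lines. Molm13 had 332 and 289 counts in shCtrl and 41 and 56 in shPRMT9, and THP1 had 317 and 352 against 60 and 68, for log2 fold changes of -2.68 ± 0.135 (SE) and -2.29 ± 0.131 (SE). Library totals ranged from 18720950 to 27356870 counts. The lines carried the myeloid transcripts LYZ, SPI1, CD33, ITGAM, CSF1R and MPO, and 3 T cell markers had at most 3 counts in any library. Of 4 B cell markers, PAX5 had 741 to 866 counts in Molm13, and the other 3 had at most 23 in any library. In THP1, PAX5 had 64 and 86 counts in shCtrl and 298 and 276 in shPRMT9. The epithelial KRT8 had 35 to 130 counts and EPCAM at most 1. CD14 had 4 to 8 counts in Molm13, and in THP1 24 and 24 in shCtrl and 116 and 122 in shPRMT9. Of 2 genes of MLL-fusion leukemia, HOXA9 had 1215 to 1599 counts in Molm13 and 1366 to 1539 in THP1. The other, MEIS1, had 1452 to 1811 counts in Molm13 and at most 9 in THP1. The submitters' THP1 library names carry the letters OCI, and whether these cells are THP1 was not tested. Across all genes tested, 33.4% rose and 33.5% fell in Molm13, and 19% rose and 18.6% fell in THP1. Of the 8 myeloid markers, 5 rose and 2 fell in Molm13 (1 was too low to test), and 6 rose and 1 fell in THP1. Their summed level was 447 to 454 RPKM in Molm13 shCtrl and 690.0 to 702 in shPRMT9. In THP1 it was 1222 to 1223 in shCtrl and 1907 to 1986 in shPRMT9. Most of each sum was LYZ, whose mean went from 361 to 565 RPKM in Molm13 and from 1072 to 1737 in THP1. CSF1R rose 4.16-fold in Molm13 and 2.04-fold in THP1, ITGAM 3.87-fold and 2.22-fold, and CD14 5.27-fold in THP1. MPO fell in both lines and FCGR1A in Molm13. The part of this shift in the results that follow was not tested. RPKM is the normalized read count per length of exon and sequencing depth. In bulk RNA, fewer cells of a type and less RNA per cell cannot be told apart.

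The windows around the annotated starts of the 5 interferon-inducible genes are shown because these are the members known to respond to interferon. Each window runs from 250 bases before to 50 bases after the start and comes from RefSeq (GRCh38.p14), which gave 50 windows for 42 of the 48 members. Capitals mark a match, on either strand, to the core of the interferon-stimulated response element, GAAA and GAAA separated by 2 bases of any kind. RefSeq gave 2 windows for PSMB8, of which the second, at chr6:32843998-32844297 on the minus strand, is printed because it holds a match and the first does not. The PSMB9 window lies on the plus strand at chr6:32853942-32854241, and that of PSMB10 on the minus strand at chr16:67936801-67937100. The PSME1 window lies on the plus strand at chr14:24135944-24136243, and that of PSME2 on the minus strand at chr14:24146561-24146860.
PSMB8: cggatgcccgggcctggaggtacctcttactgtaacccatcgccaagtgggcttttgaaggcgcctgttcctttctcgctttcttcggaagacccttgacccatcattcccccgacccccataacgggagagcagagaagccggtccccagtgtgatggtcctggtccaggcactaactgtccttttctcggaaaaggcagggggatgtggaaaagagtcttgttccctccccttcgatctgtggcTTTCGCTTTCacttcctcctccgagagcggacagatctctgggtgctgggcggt
PSMB9: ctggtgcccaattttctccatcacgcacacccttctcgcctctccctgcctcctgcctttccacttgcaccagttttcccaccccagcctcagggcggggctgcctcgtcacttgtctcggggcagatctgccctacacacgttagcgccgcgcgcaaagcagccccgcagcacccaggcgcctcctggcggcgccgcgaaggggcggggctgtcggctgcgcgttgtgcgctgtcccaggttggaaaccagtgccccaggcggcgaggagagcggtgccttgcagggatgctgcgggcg
PSMB10: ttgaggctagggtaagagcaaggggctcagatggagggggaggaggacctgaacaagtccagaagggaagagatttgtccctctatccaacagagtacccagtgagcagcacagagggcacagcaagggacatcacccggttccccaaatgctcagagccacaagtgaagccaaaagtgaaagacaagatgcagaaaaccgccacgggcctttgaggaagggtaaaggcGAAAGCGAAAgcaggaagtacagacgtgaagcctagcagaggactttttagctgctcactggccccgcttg
PSME1: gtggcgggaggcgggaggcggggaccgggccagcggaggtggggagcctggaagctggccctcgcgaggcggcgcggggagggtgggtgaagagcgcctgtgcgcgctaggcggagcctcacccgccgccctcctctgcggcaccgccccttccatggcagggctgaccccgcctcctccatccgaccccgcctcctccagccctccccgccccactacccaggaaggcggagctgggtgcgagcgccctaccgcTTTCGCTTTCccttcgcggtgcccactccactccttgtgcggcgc
PSME2: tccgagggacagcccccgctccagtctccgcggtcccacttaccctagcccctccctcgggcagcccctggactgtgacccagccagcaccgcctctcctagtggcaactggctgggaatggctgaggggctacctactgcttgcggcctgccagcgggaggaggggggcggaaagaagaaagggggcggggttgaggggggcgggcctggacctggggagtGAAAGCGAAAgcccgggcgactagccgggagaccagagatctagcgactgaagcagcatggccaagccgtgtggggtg

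The element was present in 4 of the 6 windows of these 5 genes, in 3 of the 44 windows of other members (PSMB4, PSMG4 and PSMA4) and in 3.57% of all 35116 windows. Neither the PSMB9 window nor the first PSMB8 window, at chr6:32844630-32844929, held it. All 4 matches had the same 10 bases, GAAAGCGAAA or the reverse complement TTTCGCTTTC, a string that was looked for after the matches had been seen and that 35 of all windows held (0.0997%), 1 of them a window of another member. TGACNNNGC, a half-site of CNC family factors such as NFE2L1, the regulator of proteasome genes, was present in 3 of the 6 windows (those of PSMB9, PSME1 and PSME2), in 12 of the 44 windows of other members (27.3%) and in 13.3% of all windows. The other form of the half-site, TGAGNNNGC, was in 0 of the 6, in 14 of the 44 (31.8%) and in 18.3% of all windows. TTCNNNGAA, the gamma-activated sequence, was present in 7 of those 44 windows (15.9%, against 7.66% of all) and in 1 of the 6. CCAAT was in 19 of the 44 (43.2%, against 34.6%), the kappaB-like element, GGGA and CC separated by 4 bases of any kind, in 11 (25%, against 25.6%) and CACGTG in 3 (6.82%, against 7.26%), and CCAAT and the kappaB-like element were each in 1 of the 6 and CACGTG in none. A match is a description of the letters and not a bound site.

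In Molm13, PRMT9 KD was accompanied by lower RNA of most proteasome genes. Of the 46 members with enough counts to test, 35 fell, 5 rose and 6 did not pass a false discovery rate (FDR) of 0.05 in edgeR's quasi-likelihood test, while among all 16446 genes tested 33.5% fell and 33.4% rose. The members' median log2 fold change was -0.49, against 0.000472 over all genes tested. The lowest value was that of PSMD1, the large scaffold of the cap's base, at -1.22, and the highest that of PSMB9, at 0.50. As a share of all counts the members made up 0.509% in both shCtrl libraries and 0.371% and 0.372% under shPRMT9. The study's limits for differentially expressed genes (DEGs) were an FDR below 0.05 and a fold change beyond 1.5. They also included an RPKM above 1 in at least 1 library. The study prints its upper fold limit as less than 1.5, which was read as above 1.5. For DEGs common to 2 AML lines the study used a fold change above 2. With the limit of 1.5, 15 members were lower and 0 higher, against 11.3% and 11.4% of all genes. The 5 members that rose, of which DESeq2 called 3, stayed under the fold limit, and no member exceeded it upwards at an unadjusted p below 0.05 either.

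In THP1, most proteasome genes under shPRMT9 were near their control level or slightly above it. Here 21 members rose, 3 fell and 22 did not pass the FDR, while 19% of all 16294 genes rose and 18.6% fell. With each THP1 library left out in turn, 15 to 19 members rose. The median log2 fold change of the members was 0.07, and their share of all counts was 0.579% in both shCtrl libraries and 0.617% and 0.613% in those with shPRMT9. Values ran from -0.40 for PSMG3 to 1.18 for PSMB9. PSMB8 and PSMB9 were the DEGs, both higher, against 3.82% of all genes. No member was a DEG in the lower direction, where 2.39% of all genes were, and none passed that fold limit at an unadjusted p below 0.05.

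The effect of shPRMT9 was tested for a difference between the lines in a single edgeR fit of the 8 libraries. For 38 members the log2 fold change was higher in THP1 than in Molm13, and for 0 it was lower, against 22.8% and 19.4% of all 19288 genes. No member was lower at an unadjusted p below 0.05 or with DESeq2 either, and the other 8 members were not called. The median difference over the members was 0.60 on the log2 scale, against 0.03 over all genes. Called higher in both were PSMB8, PSMB9, PSME1, PSMD4 and PSMD5, 5 members in all, and called lower in both were PSMB5, PSMD10 and PSMG3, compared with 11.5% and 10.8% of the 13476 genes tested in both. A further 14 members fell in Molm13 and rose in THP1, a pattern that 5.52% of genes showed. The 14 became 9 without the first THP1 shCtrl library, 10 without the second and 10 without the first THP1 shPRMT9 library, and the 5 called higher in both became 3 without the first Molm13 shCtrl library.

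**Figure D1:**
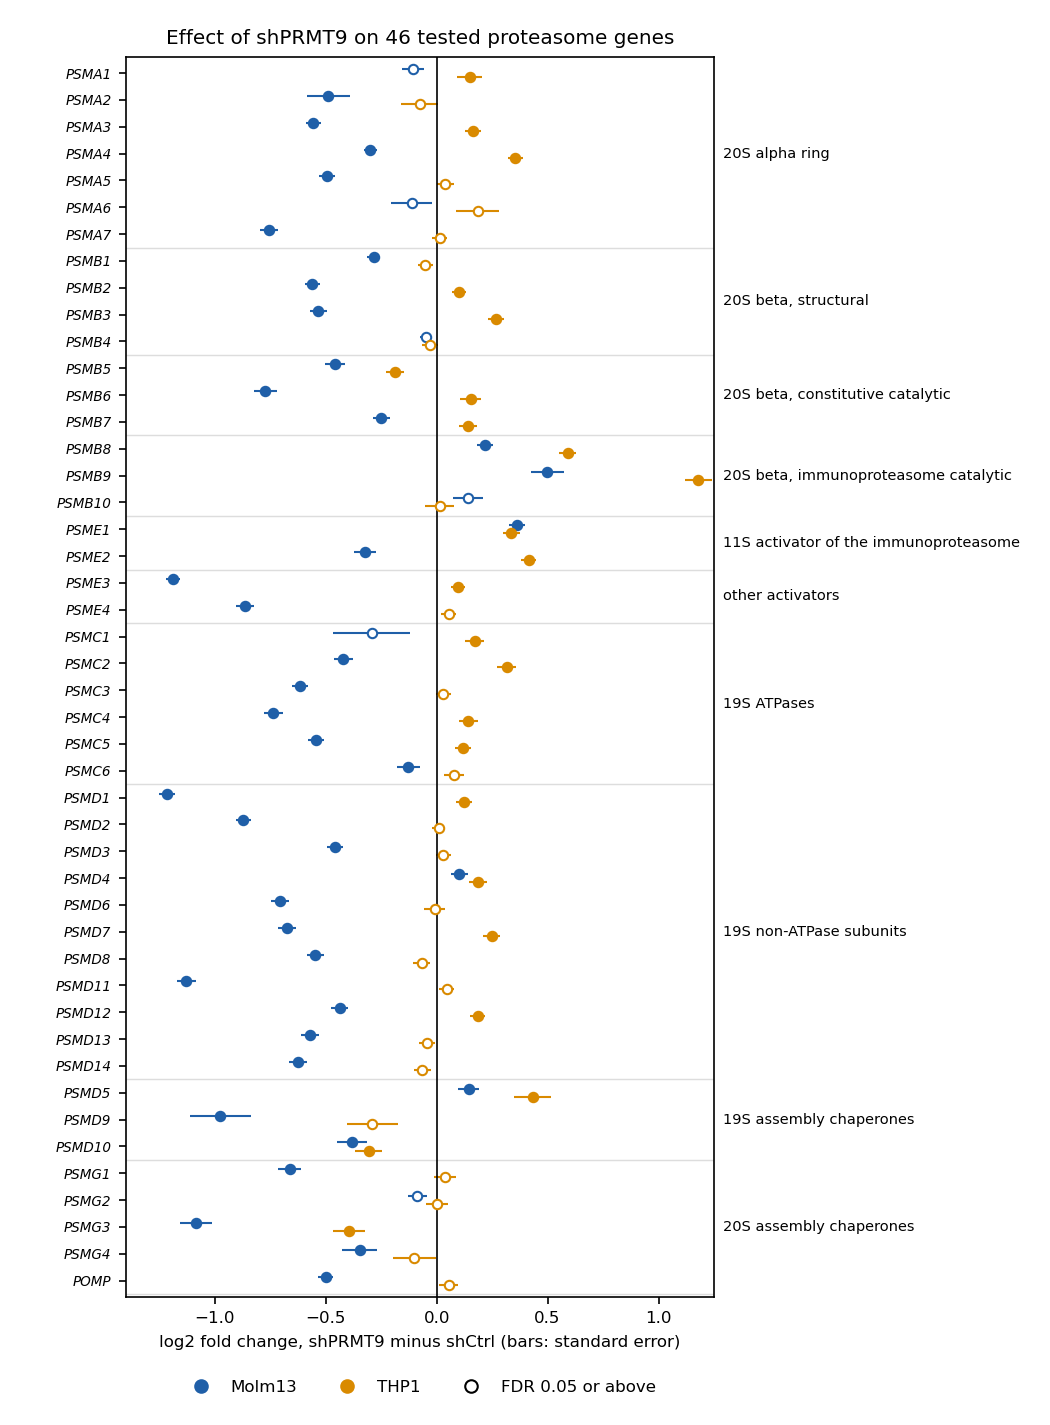
Log2 fold change of shPRMT9 over shCtrl (horizontal axis, bars are standard errors, 2 libraries per group) for the 46 members tested, grouped by their place in the complex, in Molm13 (blue) and THP1 (orange). Filled points passed an FDR of 0.05; most blue points lie left of 0, with a lowest value of -1.22, while the orange points reach 1.18 at PSMB9 and otherwise lie between -0.40 and 0.59.

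PSMB9 and PSMB8 had the highest log2 fold changes of all members in THP1. PSMB8 encodes LMP7, the chymotrypsin-like subunit that takes the place of PSMB5. Its level in Molm13 was 55.3 and 57.6 RPKM in shCtrl and 64.6 and 65.3 RPKM in shPRMT9. In THP1 it was 56.9 and 55.5 RPKM in shCtrl and 84.1 and 83.7 RPKM in shPRMT9. Both shPRMT9 libraries lay above both shCtrl libraries in each line, as was so for 40.1% of all genes tested in Molm13 and 31.5% in THP1. The log2 fold change was 0.22 ± 0.0355 (SE, edgeR adjusted p = 7.25e-07) in Molm13 and 0.59 ± 0.0376 (SE, edgeR adjusted p = 3.34e-13) in THP1. The rise was larger in THP1 by 0.39 ± 0.0522 on the log2 scale (SE, edgeR adjusted p = 6.36e-10). The THP1 fold of 1.51 lay just inside the DEG limit of 1.5, and PSMB8 was no DEG without TMM normalization, without the filter on low counts or without the second THP1 shCtrl library. By annotation 20.6% of the exonic bases of PSMB8 are overlapped by PSMB8-AS1 and PSMB9 on the other strand, and the strand setting of the counting was not given in the sources used here. PSMB8-AS1 had 185 and 171 counts in Molm13 shCtrl and 302 and 317 in shPRMT9, and 421 and 481 against 927 and 989 in THP1. All were fewer than those of PSMB8, whose lowest library had 2236 counts. PSMB8-AS1 rose 1.74-fold in Molm13 and 2.27-fold in THP1, against 1.16-fold and 1.51-fold for PSMB8. Its part in the PSMB8 values was not tested.

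PSMB9, next to PSMB8 in the MHC class II region of chromosome 6, encodes LMP2, which replaces PSMB6. It was at 5.52 and 5.38 RPKM in Molm13 shCtrl and at 7.49 and 7.76 RPKM in shPRMT9. In THP1 it was at 7.50 and 7.82 RPKM in shCtrl and at 17.1 and 17.3 RPKM in shPRMT9. The groups did not overlap in either line. This was the highest log2 fold change of all members in both lines, 0.50 ± 0.0759 (SE, edgeR adjusted p = 1.83e-07) in Molm13 and 1.18 ± 0.0595 (SE, edgeR adjusted p = 1.81e-15) in THP1, and the rise was larger in THP1 by 0.69 ± 0.102 (SE, edgeR adjusted p = 9.41e-09).

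PSMB10, on chromosome 16, encodes MECL-1, the inducible counterpart of PSMB7. Its RPKM values were 14.5 and 13.4 in Molm13 shCtrl, 15.3 and 15.2 in Molm13 shPRMT9, 15.2 and 14.8 in THP1 shCtrl and 15 and 15 in THP1 shPRMT9. The Molm13 groups lay apart by a small step and the THP1 groups overlapped. Unlike PSMB8 and PSMB9, PSMB10 passed the test in neither line, with log2 fold changes of 0.14 ± 0.0683 (SE, edgeR adjusted p = 0.0669) in Molm13 and 0.01 ± 0.0653 (SE, edgeR adjusted p = 0.901) in THP1. Without the first Molm13 shCtrl library the Molm13 value was 0.20 (edgeR adjusted p = 0.0277). By annotation 34.8% of its exonic bases are shared with AC040162.1 on the same strand.

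The constitutive partners of these subunits fell in Molm13, whereas in THP1 PSMB5 fell and PSMB6 and PSMB7 rose. PSMB5, the chymotrypsin-like subunit, was at 48.1 and 47.6 RPKM in Molm13 shCtrl and 35.0 and 34.0 in shPRMT9, and at 68 and 66.2 RPKM in THP1 shCtrl and 57.1 and 59.7 in shPRMT9. It fell in both lines without overlap of the groups, as 41.7% and 34.9% of all genes did not overlap in that direction, by 0.46 and 0.19 on the log2 scale (SE 0.0442 and 0.0408, edgeR adjusted p = 2.05e-12 and 0.000488). PSMB6, the caspase-like subunit, was at 43.3 and 43.3 RPKM in Molm13 shCtrl and 24.9 and 25.3 in shPRMT9, and at 41.9 and 43.9 RPKM in THP1 shCtrl and 48.3 and 46.4 in shPRMT9. It was a DEG in Molm13, where it fell by 0.77 ± 0.0518 (SE, edgeR adjusted p = 2.20e-17), and rose by 0.15 ± 0.0482 (SE, edgeR adjusted p = 0.0123) in THP1. PSMB7, the trypsin-like subunit, was at 65.5 and 67.2 RPKM in Molm13 shCtrl and 56.5 and 54.0 in shPRMT9, and at 59.1 and 60.3 RPKM in THP1 shCtrl and 62.7 and 67.8 in shPRMT9. It too fell in Molm13 (-0.25 ± 0.0379, SE, edgeR adjusted p = 1.66e-07) and rose in THP1 (0.14 ± 0.0421, SE, edgeR adjusted p = 0.00844). The THP1 rise of PSMB6 did not pass DESeq2 (adjusted p = 0.0768) or edgeR without the first shCtrl (adjusted p = 0.140) or the first shPRMT9 library (adjusted p = 0.0878). That of PSMB7 did not pass edgeR without the first shCtrl (adjusted p = 0.0534) or the second shPRMT9 library (adjusted p = 0.190).

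**Figure D2:**
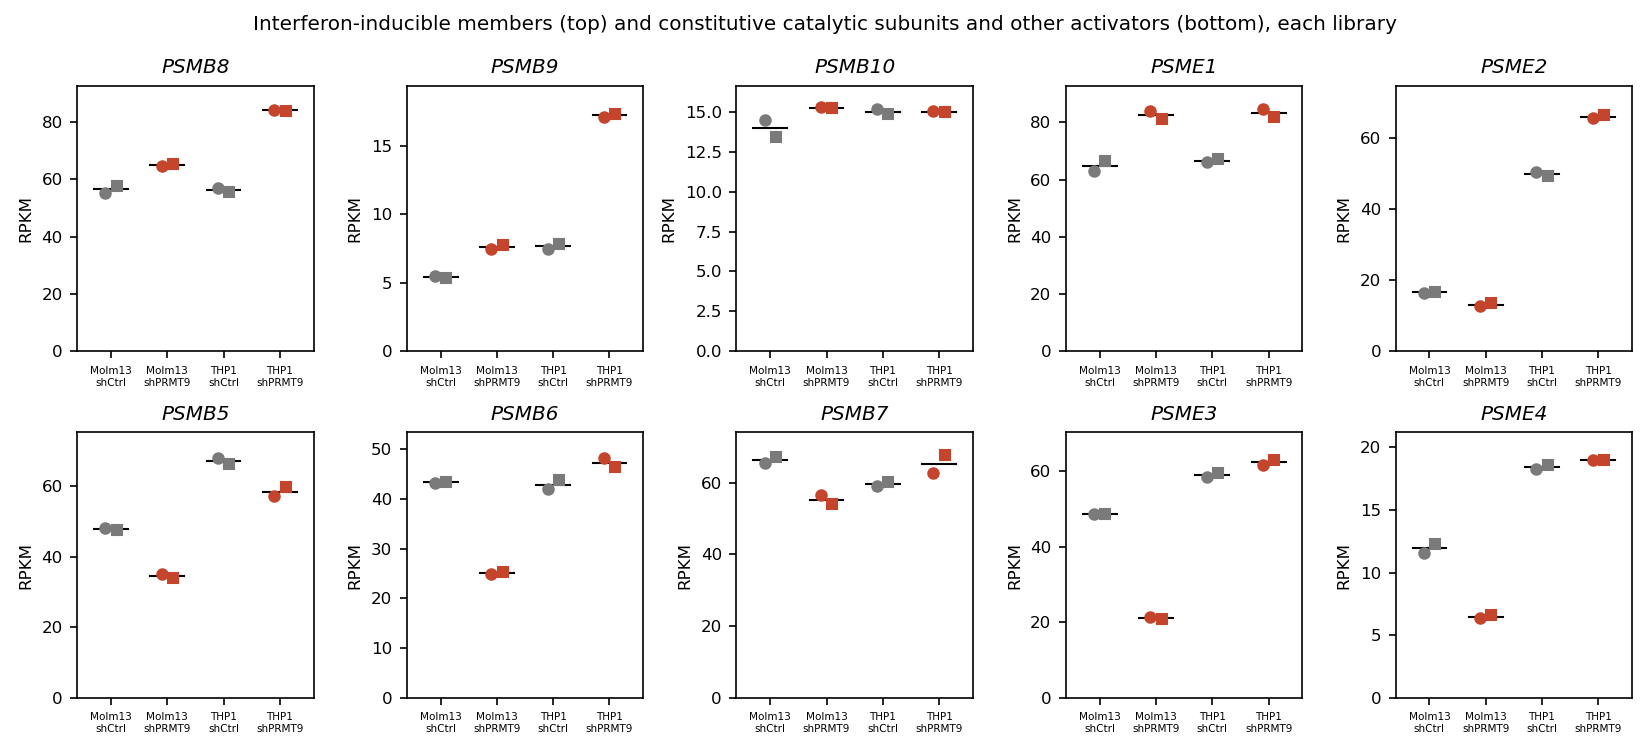
Level in RPKM (vertical axes, from 0) of each of the 8 libraries for the 5 interferon-inducible members (top) and for the constitutive active-site subunits and the other 2 activators (bottom); circles are replicate 1, squares replicate 2, lines group means, gray shCtrl and red shPRMT9. PSMB8, PSMB9 and PSME1 are higher in shPRMT9 in both lines, whereas PSMB6, PSME2 and PSME3 are lower in Molm13 and higher in THP1.

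Each library also gives the ratio of an inducible subunit to its partner, a quantity that does not depend on the library size or on its normalization. The PSMB8 to PSMB5 ratio of RPKM was 1.15 and 1.21 in Molm13 shCtrl and 1.85 and 1.92 in shPRMT9, and 0.837 and 0.838 in THP1 shCtrl and 1.47 and 1.40 in shPRMT9. The groups lay apart in both lines, with ratios 1.60-fold and 1.72-fold higher in shPRMT9. The PSMB9 to PSMB6 ratio went from 0.126 ± 0.00229 to 0.303 ± 0.00425 in Molm13 and from 0.179 ± 0.000349 to 0.364 ± 0.0133 in THP1 (mean ± SD, n = 2), 2.41-fold and 2.04-fold higher. The PSMB10 to PSMB7 ratio was 1.31-fold higher in Molm13, from 0.210 ± 0.0155 to 0.276 ± 0.00803, and 0.916 times the control value in THP1, 0.251 ± 0.00757 against 0.230 ± 0.0137 (mean ± SD, n = 2). No test was run on these ratios, which are given as values.

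The 3 inducible subunits together made up 32.4% and 32.6% of the active-site subunits' RPKM in Molm13 shCtrl, and 42.9% and 43.8% in shPRMT9. In THP1 the share was 32.0% and 31.4% in shCtrl and 40.9% and 40% in shPRMT9. The levels under these shares were close between the lines in shCtrl and lay apart in shPRMT9. In Molm13 the constitutive subunits' mean level went from 52.5 to 38.3 RPKM per gene and the inducible ones' from 25.3 to 29.3. In THP1 the constitutive mean was 56.6 in shCtrl and 57.0 in shPRMT9, with overlapping libraries, and the inducible mean went from 26.3 to 38.7. The deposited exonic length of PSMB8 is 2006 bases, whereas its exons merged from GENCODE 29 span 2997. With the longer length, an alternative chosen after the data were seen, the inducible share was 26.6% and 36.6% in Molm13 and 26.2% and 34.1% in THP1, in shCtrl and shPRMT9 in turn. RNA shares say nothing of the subunits' share in assembled particles.

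**Figure D3:**
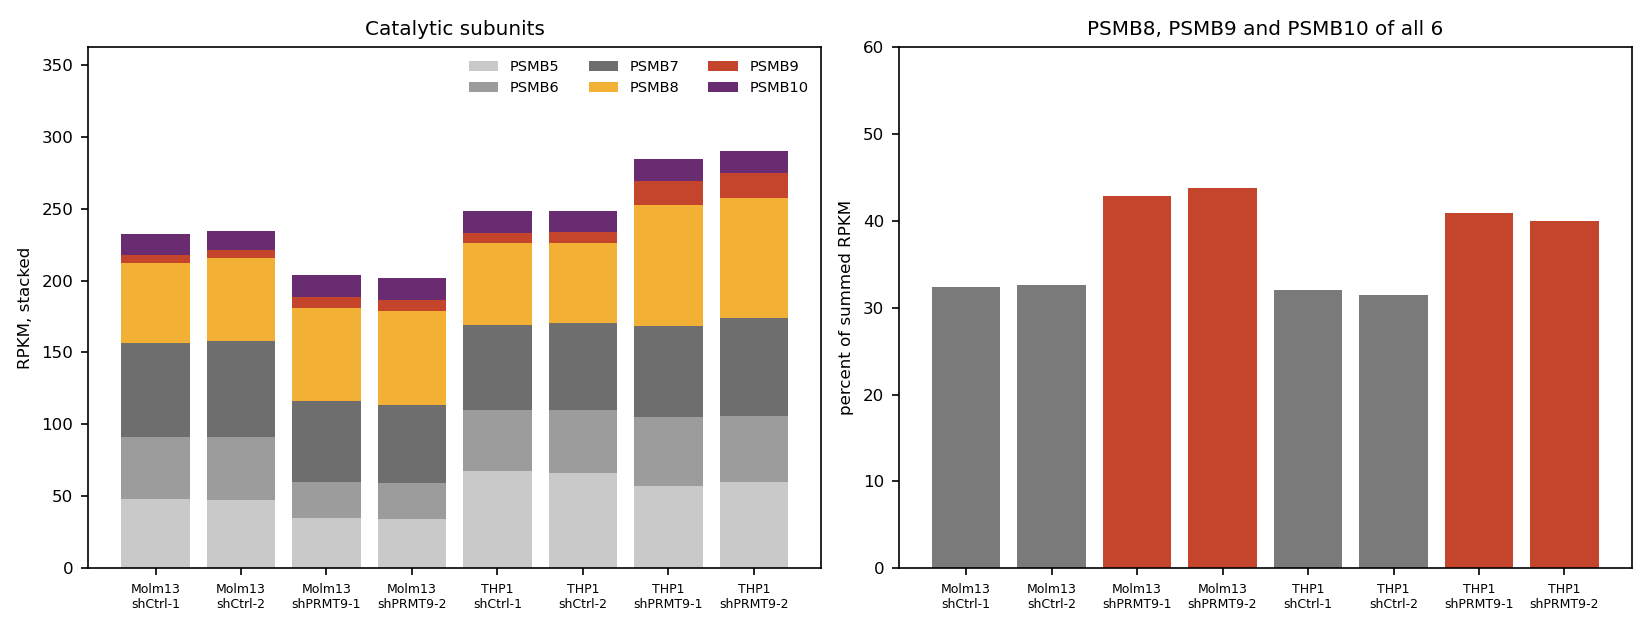
Left, RPKM of the 6 active-site subunits stacked for each library; right, the part of that sum, in percent, from PSMB8, PSMB9 and PSMB10 in shCtrl (gray) and shPRMT9 (red). The share is 31.4 to 32.6% in the 4 shCtrl libraries and 40 to 43.8% in the 4 shPRMT9 libraries, on a lower total in Molm13 shPRMT9 and a higher total in THP1 shPRMT9.

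The 2 genes of the PA28 alpha-beta ring, which opens the gate of the core without ATP or ubiquitin, lie close together on chromosome 14. PSME1 was at 63.1 and 66.6 RPKM in Molm13 shCtrl and 83.8 and 81.2 in shPRMT9, and at 66.0 and 67.1 RPKM in THP1 shCtrl and 84.7 and 81.9 in shPRMT9. It rose by nearly the same amount in both lines, 0.36 ± 0.0353 and 0.34 ± 0.0381 on the log2 scale (SE, edgeR adjusted p = 2.74e-12 and 3.80e-08), and the difference between them, -0.01 ± 0.0524 (SE), did not pass the test (edgeR adjusted p = 0.936). PSME2 was at 16.4 and 16.8 RPKM in Molm13 shCtrl and 12.8 and 13.5 in shPRMT9, and at 50.5 and 49.4 RPKM in THP1 shCtrl and 65.6 and 66.4 in shPRMT9. It fell in Molm13 (-0.32 ± 0.0501, SE, edgeR adjusted p = 2.83e-07) and rose in THP1 (0.41 ± 0.0343, SE, edgeR adjusted p = 8.25e-11), and was the 1 inducible member called in opposite directions in the lines. The PSME1 to PSME2 ratio was 3.84 and 3.96 in Molm13 shCtrl and 6.57 and 6.01 in shPRMT9, but 1.31 and 1.36 in THP1 shCtrl and 1.29 and 1.23 in shPRMT9. A PSME2 pseudogene took 19.9% of the counts of gene and pseudogene in Molm13 and 0.0234% in THP1. With its counts added, the Molm13 ratio was 3.14 in shCtrl and 5.0 in shPRMT9.

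The activators that interferon does not induce showed some of the widest gaps between the lines. PSME3, the nuclear PA28 gamma, was at 48.5 and 48.6 RPKM in Molm13 shCtrl and 21.4 and 20.8 in shPRMT9, a fall of 1.19 ± 0.0320 on the log2 scale (SE, edgeR adjusted p = 1.19e-31). In THP1 it was at 58.3 and 59.3 RPKM in shCtrl and 61.7 and 62.9 in shPRMT9 (log2 fold change 0.09 ± 0.0312, SE, edgeR adjusted p = 0.0174, which was not passed without 1 or the other shCtrl library or the second shPRMT9 library). PSME4, or PA200, a nuclear activator linked to histone degradation, was at 11.6 and 12.3 RPKM in Molm13 shCtrl and 6.39 and 6.59 in shPRMT9, and fell by 0.86 ± 0.0406 (SE, edgeR adjusted p = 9.42e-23). In THP1 it stayed between 18.2 and 19 RPKM in all 4 libraries (log2 fold change 0.05 ± 0.0342, SE, edgeR adjusted p = 0.225). Both were DEGs in Molm13 and in THP1 neither was.

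Among the alpha subunits of the core, 5 of 7 fell in Molm13 and 0 rose, and 3 rose in THP1 and 0 fell. The 2 alpha subunits not called in Molm13, PSMA1 and PSMA6, were also lower, by 0.11 and 0.11 on the log2 scale (edgeR adjusted p = 0.0508 and 0.287). The direction of PSMA6 is uncertain, since with the counts of its pseudogenes added it rose by 0.12 in Molm13 (edgeR adjusted p = 0.0206). PSMA7 had the lowest Molm13 value, falling by 0.76 ± 0.0394 (SE), from 82.1 and 83.4 RPKM to 45.9 and 51.0, and was the 1 DEG among the alpha subunits. In THP1 it was at 105 and 106 RPKM in shCtrl and 105 and 107 in shPRMT9. PSMA4 had the highest THP1 value, 0.36 ± 0.0332 (SE), from 27.7 and 28.0 RPKM to 35.5 and 35.1, and fell by 0.30 in Molm13. PSMA2 was the lowest in THP1, at -0.08 ± 0.0843 (SE, edgeR adjusted p = 0.527), and fell by 0.49 in Molm13. Of the structural beta subunits, PSMB1, PSMB2 and PSMB3 fell in Molm13, PSMB2 furthest with a log2 fold change of -0.56 ± 0.0337 (SE), and PSMB4 did not pass the test in either line (-0.05 ± 0.0272 and -0.03 ± 0.0355, SE). In THP1, PSMB3 rose by 0.27 ± 0.0358 (SE), from 128 and 126 RPKM to 153 and 151, and PSMB1 was lowest at -0.05 ± 0.0344 (SE, edgeR adjusted p = 0.271). Their highest level in Molm13 shCtrl was that of PSMB4, at 129 ± 2.25 RPKM (SD, n = 2), the most abundant member per length there.

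Of the 6 ATPases that thread substrates into the core, 5 fell in Molm13 and 4 rose in THP1, with 0 in the other direction in either line. Without the second THP1 shCtrl library the 4 became 2, since PSMC4 and PSMC5 (adjusted p = 0.162) lost the call. PSMC4 had the lowest Molm13 value, -0.74 ± 0.0435 (SE), with 40.2 and 42.1 RPKM in shCtrl and 24.9 and 24.0 in shPRMT9, and PSMC3 fell by 0.62 ± 0.0377 (SE), from 57.6 and 60.7 to 38.6 and 37.9 RPKM. Both were DEGs there. In THP1, PSMC4 rose by 0.14 ± 0.0422 (SE, edgeR adjusted p = 0.00792, but 0.132 without the second shCtrl and 0.0741 without the first shPRMT9 library), while PSMC3 was the lowest ATPase at 0.03 ± 0.0341 (SE, edgeR adjusted p = 0.530). PSMC6 was the highest in Molm13, falling by 0.13 ± 0.0525 (SE, edgeR adjusted p = 0.0300), a call that DESeq2 did not make (adjusted p = 0.213) and that was lost without 3 of the 4 libraries in turn. PSMC2 had the highest THP1 value, 0.32 ± 0.0439 (SE), after a fall of 0.42 in Molm13.

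The non-ATPase subunits of the cap held the largest fall in Molm13. There 10 of 11 fell and 6 were DEGs, against 33.5% and 11.3% of all genes tested in that direction. PSMD1 went from 37.5 and 39.9 RPKM to 16.1 and 16.9, and PSMD11, a lid subunit, from 17.3 and 18.5 to 8.15 and 8.06 RPKM, a fall of 1.13 ± 0.0417 on the log2 scale (SE). Their levels were thus 2.32-fold and 2.19-fold lower, and no shPRMT9 library came near a shCtrl library. PSMD2, the other large scaffold of the base, fell by 0.87 ± 0.0337 (SE), PSMD6 by 0.71 ± 0.0388, PSMD7 by 0.67 ± 0.0399 and PSMD14, the deubiquitinase of the lid, by 0.63 ± 0.0397. In THP1 the largest rise was that of PSMD7, 0.25 ± 0.0378 (SE), from 46.6 and 45.3 to 53.9 and 54.2 RPKM, and the lowest value that of PSMD8, -0.07 ± 0.0378 (SE, edgeR adjusted p = 0.177). PSMD1 rose there by 0.12 ± 0.0357 (SE, edgeR adjusted p = 0.00631), a call lost without the first shCtrl (adjusted p = 0.0711) or the first shPRMT9 library (adjusted p = 0.0920). Its difference between the lines was the largest of all members, 1.35 ± 0.0510 (SE, edgeR adjusted p = 3.51e-41), followed by those of PSME3, 1.30, and PSMD11, 1.19. PSMD4, the ubiquitin receptor also called Rpn10, was the exception, rising in Molm13 by 0.10 ± 0.0388 (SE, edgeR adjusted p = 0.0191) and in THP1 by 0.19 ± 0.0407 (SE, edgeR adjusted p = 0.000469). Its libraries in Molm13 were at 33.6, 35.7, 37.8 and 35.9 RPKM, the last 2 being shPRMT9, and the Molm13 call was not made by DESeq2 (adjusted p = 0.151), without the filter on low counts (adjusted p = 0.105), without the first shCtrl (adjusted p = 0.239) or without the first shPRMT9 library (adjusted p = 0.173).

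Assembly factors did not move as 1 group. PSMD5, a chaperone of the ATPase base, rose in Molm13 by 0.14 ± 0.0455 (SE, edgeR adjusted p = 0.00518) and in THP1 by 0.43 ± 0.0833 (SE, edgeR adjusted p = 0.000124), from 3.11 and 3.01 to 4.23 and 3.96 RPKM. The Molm13 rise did not pass DESeq2 (adjusted p = 0.0839) or edgeR without the first shCtrl library (adjusted p = 0.225). PSMD9 fell by 0.97 ± 0.136 (SE, edgeR adjusted p = 2.79e-08) in Molm13, where it was at 1.14, 0.948, 0.556 and 0.502 RPKM, and missed the FDR in THP1 at -0.29 ± 0.116 (SE, edgeR adjusted p = 0.0504). PSMD10, known as gankyrin, fell in both lines, by 0.38 ± 0.0661 and 0.31 ± 0.0621 (SE, edgeR adjusted p = 2.25e-06 and 0.000220). PSMG3, a chaperone of the alpha ring, also fell in both, from 16.0 and 16.9 to 7.82 and 7.57 RPKM in Molm13 and from 16.2 and 14.6 to 11.7 and 11.4 RPKM in THP1. Its log2 fold changes were -1.09 ± 0.0732 and -0.40 ± 0.0713 (SE, edgeR adjusted p = 2.57e-17 and 5.19e-05), the lowest of any member in THP1. PSMG1 fell by 0.66 ± 0.0511 (SE) in Molm13 and was a DEG, whereas PSMG2 passed the test in neither line (-0.09 ± 0.0435 and 0.00 ± 0.0476, SE).

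POMP, the maturation factor that recruits beta subunits and is itself induced by interferon in other cells, followed the constitutive subunits in Molm13. It was at 126 and 127 RPKM in shCtrl and 90.8 and 86.2 in shPRMT9, a fall of 0.50 ± 0.0335 (SE, edgeR adjusted p = 2.28e-17). In THP1 it was at 64.2 and 66.2 RPKM in shCtrl and 66.5 and 67.7 in shPRMT9, with a log2 fold change of 0.05 ± 0.0416 (SE, edgeR adjusted p = 0.341). The tissue-restricted members could not be tested. PSMA8, the testis alpha subunit, had 1 count in all 8 libraries together, and PSMB11, the thymus beta subunit, had 3.

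Some levels cannot be set side by side between the lines, because the share of reads on processed pseudogenes differed between the tables. The 31 pseudogenes named after members held 12746 counts in the 4 Molm13 libraries and 112 in those of THP1. PSMC1 had 0.690, 0.687, 0.491 and 0.616 RPKM in Molm13 against 14.4 to 16.4 in THP1, and its 13 pseudogenes took 92.2% of the joint counts in Molm13 and 0.365% in THP1. The share was 82.6% against 0.782% for PSMA6 and 45.2% against 0.0618% for PSMA2. With pseudogene counts added, PSMC1 fell in Molm13 by 0.13 (edgeR adjusted p = 0.0244), in place of -0.29 ± 0.175 (SE, edgeR adjusted p = 0.137), and PSMA6 rose by 0.12 (edgeR adjusted p = 0.0206), in place of -0.11 ± 0.0932 (SE). Reads of a gene and of a near-identical copy cannot be told apart, so the values of PSMC1, PSMA6, PSMA2 and PSME2 in Molm13 are uncertain. The low pseudogene counts in THP1 do not show that such reads were counted for the gene. PSMA6 and PSMA2 were low in THP1 shCtrl too, at means of 1.60 and 3.01 RPKM, against 106 for PSMA7. Whether reads shared with copies were left uncounted in THP1 was not tested. Overlap with other annotated genes covers 75.8% of the exonic bases of PSMC1, and over 20% of those of 6 other members, PSMA1, PSMA2, PSMB8, PSMB10, PSMD7 and PSMD9.

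**Figure D4:**
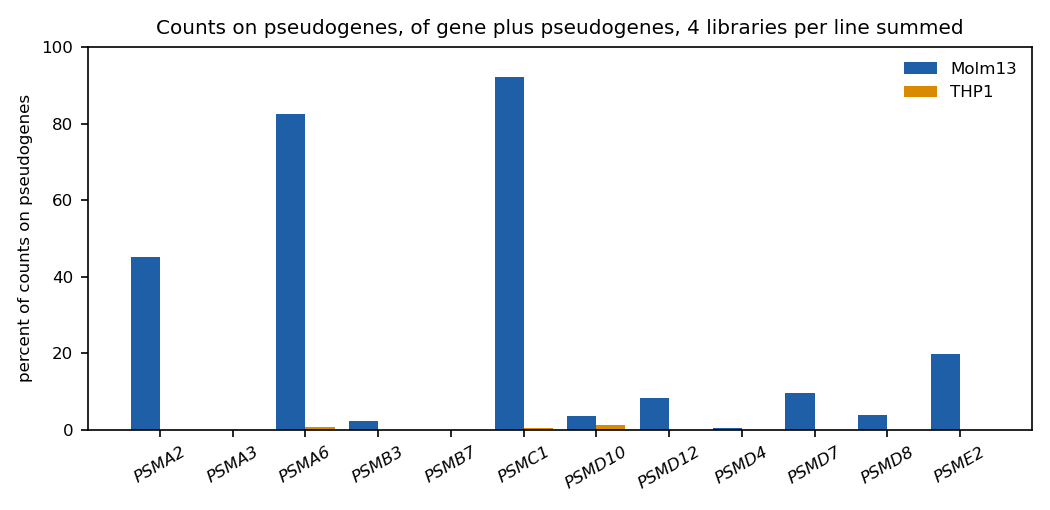
Counts on pseudogenes as a percentage of the counts of the gene and its pseudogenes (vertical axis), summed over the 4 libraries of each line, for the 12 members with named pseudogenes in the table. In Molm13 (blue) PSMC1 reaches 92.2%, PSMA6 82.6%, PSMA2 45.2% and PSME2 19.9%, while no THP1 bar (orange) exceeds 1.39%.

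Genes around the proteasome, which are not members, showed the same split between the lines in part. Of 11 proteasome-associated factors, 8 fell and 1 rose in Molm13 (median log2 fold change -0.24), and 1 fell and 5 rose in THP1 (median 0.08). The deubiquitinase USP14 was lowest in Molm13 at -0.69 and the cap assembly factor PAAF1 highest at 0.43. In THP1, SHFM1, the small lid subunit also called SEM1, was lowest at -0.47 and KIAA0368, also called ECPAS, highest at 0.22. Of 7 regulators of proteasome genes, 3 rose and 4 fell in Molm13, and 4 rose and 1 fell in THP1. NFE2L1, which induces proteasome genes when the proteasome is impaired, rose in both lines, by 0.19 ± 0.0380 and 0.31 ± 0.0341 (SE, edgeR adjusted p = 2.27e-05 and 2.56e-08). The segregase VCP was lowest in Molm13 at -0.51 and HSF1 in THP1 at -0.19, and STAT3 was highest in both, at 0.28 and 0.40. Among 6 genes of ubiquitin supply, 3 rose in each line while 2 fell in Molm13 and 1 in THP1, and the lowest were UBA6 at -0.45 in Molm13 and RPS27A at -0.25 in THP1. For comparison, 33.4% of all genes tested rose and 33.5% fell in Molm13, and 19% rose and 18.6% fell in THP1. No list was tested against these shares. The lists are short, so a count near its share does not show a shift.

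The genes that act after the immunoproteasome in MHC class I presentation, and their regulators, rose more widely. Of 13 listed genes, 9 rose and 3 fell in Molm13 (median log2 fold change 0.43), and 13 rose in THP1 (median 0.70). Among all genes tested, 33.4% rose and 33.5% fell in Molm13, and 19% rose and 18.6% fell in THP1. TAP1, the peptide transporter subunit encoded beside PSMB9, had 707 and 670 counts in Molm13 shCtrl and 847 and 1020 in shPRMT9, and 2011 and 2116 against 3875 and 4000 in THP1, for log2 fold changes of 0.44 and 1.03. TAP2, its partner in the same gene cluster, fell by 0.96 in Molm13 (edgeR adjusted p = 1.47e-16) and rose by 0.54 in THP1 (edgeR adjusted p = 3.23e-10), and was the lowest of the list in Molm13. ERAP1, which trims peptides in the endoplasmic reticulum, was the lowest of the list in THP1, at 0.31. IRF1, the factor that drives PSMB9 and TAP1 in interferon responses, rose by 0.45 in THP1 and was at -0.07 in Molm13 (edgeR adjusted p = 0.252). NLRC5, the transactivator of MHC class I genes, fell by 0.41 in Molm13 and rose by 0.49 in THP1.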

How the data were processed

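PolyA RNA was sequenced (8 libraries, 4 groups). The submitters' processing notes name TopHat2 2.0.8, HTSeq 0.11.2, edgeR 3.30.3 and hg38; the annotation and the strand setting of the counting are not given in the sources used here. The deposited tables, 1 per line, hold raw counts (whole reads per gene, from the authors' counting, without any scaling), with coordinates and exonic lengths for Molm13, which also served for THP1 RPKM. All 48 members had the start and end given by GENCODE 29.

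All later steps used edgeR 4.0.16 and DESeq2 1.42.0 under R 4.3.3. Each line was fitted separately (TMM, filterByExpr, quasi-likelihood test, shPRMT9 against shCtrl, Benjamini-Hochberg adjustment over all genes tested), and the difference between lines in a joint fit of the genes shared by the tables (57722). SEs are the absolute log2 fold change over the square root of F. RPKM used TMM-scaled library sizes. Totals of 18720950 to 27356870 counts per library set the counting precision. Replicate pairs differed by more than counting noise (chi-square per gene 1.35 to 2.17), and none was counted as 1 sample. On simulated data with 200 genes changed 2-fold, the Molm13 fit called 196 of them among 16446 genes, the THP1 fit 197 among 16294 and the difference 172 among 19288. At 1.25-fold the Molm13 and THP1 fits called 141 and 124. The changed genes were drawn only from those with higher mean counts, and were far fewer than the genes called in the real data. The simulation therefore does not give the recovery of genes with low counts.

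The members, lists and motifs were chosen with earlier results of these data known. Named in full are the 5 inducible members, PSMB5, PSMB6, PSMB7, POMP, PSME3 and PSME4; in each other group, the lowest and highest log2 fold change per line and every DEG; in each outside list, its extremes and TAP1, IRF1, NLRC5 and NFE2L1, except that some genes the rule names are not reported here. PSMB8-AS1, PSMA2, PSMC1, TAP2 and other genes beyond this rule are named for an overlap, a pseudogene or a place in the cluster, after their values were seen. Alternatives were other normalizations, no filter, DESeq2, a replicate block, 1 joint fit, pseudogene counts added, other DEG limits, each library left out and GENCODE 29 lengths. The pseudogene alternative added the counts only of pseudogenes whose symbol ends in a number.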

Additional observations from a re-analysis of the deposited data

Results flagged for a closer look

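The log2 fold change under shPRMT9 differed between the lines, by the interaction term of the joint edgeR fit at an FDR of 0.05, for 38 of the 46 members tested. All 38 differences, given here as the log2 fold change in THP1 minus that in Molm13, were above 0. The differences were 0.27 for PSMA1, 0.42 for PSMA2, 0.73 for PSMA3, 0.67 for PSMA4, 0.55 for PSMA5 and 0.78 for PSMA7 in the alpha ring. They were 0.25 for PSMB1, 0.67 for PSMB2 and 0.82 for PSMB3 among the structural beta subunits, and 0.28 for PSMB5, 0.94 for PSMB6 and 0.40 for PSMB7 among the constitutive active-site subunits. PSMB8 differed by 0.39, PSMB9 by 0.69, PSME2 by 0.75, PSME3 by 1.30 and PSME4 by 0.93. The ATPases differed by 0.48 (PSMC1), 0.75 (PSMC2), 0.66 (PSMC3), 0.89 (PSMC4), 0.67 (PSMC5) and 0.22 (PSMC6). Among the other cap subunits the values were 1.35 for PSMD1, 0.89 for PSMD2, 0.50 for PSMD3, 0.71 for PSMD6, 0.93 for PSMD7, 0.49 for PSMD8, 1.19 for PSMD11, 0.63 for PSMD12, 0.54 for PSMD13 and 0.57 for PSMD14. The assembly factors differed by 0.30 (PSMD5), 0.70 (PSMD9), 0.71 (PSMG1), 0.70 (PSMG3) and 0.57 (POMP). The difference did not pass DESeq2 for PSMA2, PSMC6 and PSMD5 (adjusted p = 0.0911, 0.0896 and 0.0612). In edgeR it was lost without at least 1 Molm13 or THP1 library for these 3, and for PSMC1 and PSMA1, at adjusted p-values of up to 0.268 for PSMC1 and 0.0629 for PSMA1. The counts of PSMC1, PSMA2 and PSME2 in Molm13 are divided with pseudogenes. No explanation of the difference between the lines was tested. The line cannot be told apart from any difference in sequencing or counting between the 2 tables.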

How the results depend on the processing

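No called fold change or difference of a member turned direction under any alternative run, whereas PSMA6 in Molm13, not called, did. With each library left out in turn, Molm13 had 34 to 35 members that fell, 4 to 5 that rose and 14 to 16 DEGs that were lower, and the difference was called for 35 to 38. With DESeq2, 3 members rose in Molm13. Library size alone without TMM gave 5 members that fell in THP1, in place of 3. THP1 DEGs that were higher numbered 1 with library size alone, 1 without the filter on low counts, 1 with a fold limit of 2, and 1 to 2 with a library left out, PSMB8 being lost without the second shCtrl library. A fold limit of 2 left 4 of the 15 lower DEGs in Molm13. With pseudogene counts added, PSMA6 was at 0.12 (edgeR adjusted p = 0.0206), and the Molm13 PSME1 to PSME2 ratio was 3.14 in shCtrl and 5.0 in shPRMT9. With GENCODE 29 lengths the PSMB8 to PSMB5 ratio was 0.790 and 1.26 in Molm13 and 0.561 and 0.962 in THP1, and the inducible share 26.6% and 36.6% in Molm13 and 26.2% and 34.1% in THP1; the longer PSMB8 length alone makes this shift. No pairing of the libraries by replicate number was seen (correlation of same-numbered deviations -0.0868 in Molm13 and -0.0145 in THP1), which does not exclude a pairing in the experiment. With the replicate number as a block, 35 members fell and 5 rose in Molm13, 3 fell and 20 rose in THP1, and 38 differed. Apart from these, the cause of each change was not tested. In THP1, the rises of PSMA1, PSMB2, PSMB6, PSMB7, PSME3, PSMC4, PSMC5 and PSMD1 each lost the FDR without at least 1 library, and 2 libraries per group cannot show whether smaller changes are absent.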

Other observations

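The values of most members not yet described one by one are given here. PSMA3 was at 58.9 and 59.8 RPKM in Molm13 shCtrl and 39.8 and 40.2 in shPRMT9, against 45 and 45 and then 49.9 and 50 in THP1. PSMC5 went from 30.8 and 30.9 to 20.9 and 21.1 RPKM in Molm13 and from 40.7 and 39.6 to 43.0 and 43.3 in THP1. PSMD12, a lid subunit, fell by 0.44 ± 0.0379 on the log2 scale in Molm13 and rose by 0.18 ± 0.0337 in THP1 (SE, edgeR adjusted p = 8.56e-14 and 6.14e-05). PSMA5, PSMD3 and PSMD13 fell in Molm13, with log2 fold changes of -0.49, -0.46 and -0.57, and in THP1 stood at 0.04, 0.03 and -0.04 without passing the test. PSMG4, which has 2.20, 2.19, 1.86 and 1.58 RPKM in Molm13, fell there by 0.35 ± 0.0789 (SE, edgeR adjusted p = 0.000171), a call lost without the second shPRMT9 library (adjusted p = 0.0524).

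Per length, the groups of the complex differed in level within a library, although union exon lengths lower the RPKM of genes with long rare exons. In Molm13 shCtrl the alpha ring had a median of 24.2 RPKM (PSMA6 at 2.05 to PSMA7 at 82.7), the structural beta subunits 104, the constitutive active-site subunits 47.8 and the inducible ones 14.0. In THP1 shCtrl the same medians were 27.8, 88.6, 59.7 and 15 RPKM. POMP, the most abundant assembly factor per length in both lines, was at 126 ± 0.616 RPKM in Molm13 shCtrl (SD, n = 2) and at a mean of 65.2 in THP1 shCtrl.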
